A study of Mus musculus with 8 samples.

Results

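Gene expression was compared between 2 cultures of vascular smooth muscle cells from the mouse aorta that both carry no knockout, the E12 wild type and the E47 wild type. E12 and E47 are products of Tcf3, the gene of the E2A transcription factor, made with alternative exons that encode the part binding DNA. The series pairs each of these wild types with its own knockout, of E12 or of E47. All cells were primary cells revived from frozen stocks and lysed in the dish, and no treatment was given in the labels. The labels name neither strain, age nor the site along the aorta, and do not say how either culture was derived. The comparison rests on 4 of the 8 libraries of the series, chosen by their labels, with 2 extractions of each wild type. Nothing in the labels says that extractions came from separate cultures or animals, so a p-value reflects no more than how far extractions differ, and that difference may be technical. What belongs to the wild-type label and what belongs to one culture cannot be told apart.

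Smooth muscle cells of a vessel wall are known by a set of contractile proteins, among them smooth muscle actin, smooth muscle myosin heavy chain and calponin, and they lower these genes in culture. Cells of different stretches of the aorta come from different embryonic sources and keep different transcription factors, such as Hox genes, that mark position along the body. The wall also holds endothelial cells, which line the lumen, and fibroblasts of the adventitia, while mesothelium covers the outside of organs.

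The E12 wild-type libraries held 15628499 and 13909230 counts, those of E47 held 14912823 and 27517374. Across all genes tested, libraries of the same wild type correlated at r = 0.992 (E12) and 0.995 (E47), and libraries of different wild types at 0.907 to 0.912. These are correlations across genes, which are not independent replicates. Levels are CPM, counts scaled to the size of the library, each pair of values gives the first and then the second library, and changes are log2 ratios of the E12 to the E47 wild type. Of 13992 genes tested, 7747 passed an adjusted p of 0.05, or 55.4%, with 27.8% higher and 27.6% lower in the E12 wild type. Because so many genes passed, members are mostly counted here by a difference that passed the test and was also over 2-fold. That held for 2496 genes, or 17.8% of those tested, of which 1180 (8.43%) were higher and 1316 (9.41%) lower in the E12 wild type. Differences of over 16-fold were found for 132 genes on the E12 side and 177 on the E47 side, with genes at 0 counts in one group taken at a floor of 3 counts. The median log2 change over all genes tested was 0.00.

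The 2 E12 wild-type libraries were less alike than those of any other genotype. Their counts differed with a chi-square of 13.2 per degree of freedom, against 4.67 for E47 and 4.87 and 4.92 for the knockouts. The difference followed transcript length. Among genes of at least 2 CPM whose longest annotated transcript was over 10 kb, the second E12 library was higher than the first by a median log2 ratio of 0.42, and for transcripts under 2 kb by -0.10. In the E47 wild type these medians were 0.02 and -0.08. The E12 knockout pair showed a smaller rise with length, with medians of 0.16 and -0.07, and the E47 knockout pair was at -0.01 and 0.05. Between the E12 libraries 25 genes differed by over 2-fold, with a median longest transcript of 15.7 kb against 3.28 kb over all genes tested, and 24 of them were higher in the second library. Malat1, a nuclear RNA, was at 246 and 640 CPM there, against 776 and 649 CPM for E47. Between the wild types the median log2 change also fell with length, from 0.22 under 2 kb to -0.21 at 8 to 10 kb and -0.18 over 10 kb. What length contributes to the comparison was not tested, and many calls were computed again without each library.

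**Figure D1:**
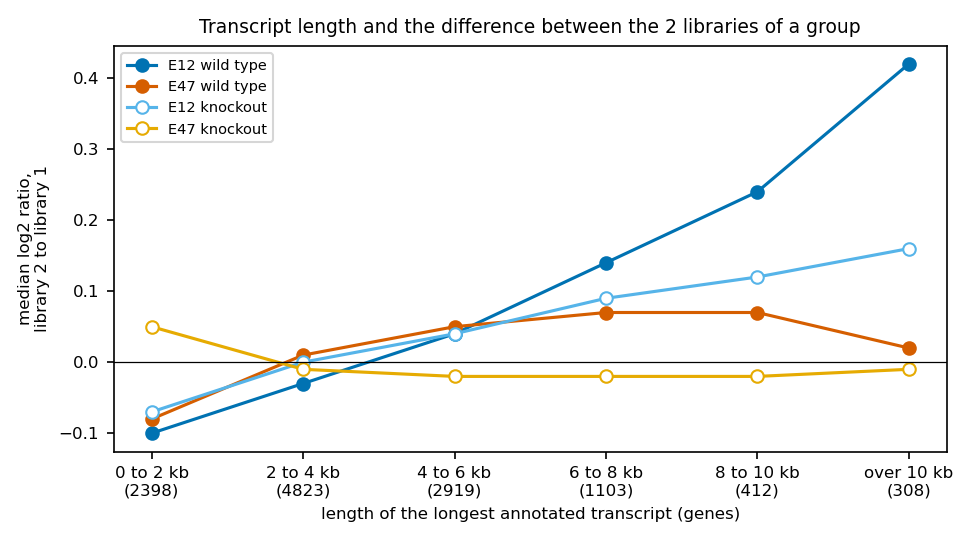
Median log2 ratio of library 2 to library 1 within each genotype (vertical axis), for genes of at least 2 CPM in either wild type grouped by the length of the longest annotated transcript (horizontal axis, number of genes in brackets). The E12 wild type climbs from -0.10 under 2 kb to 0.42 over 10 kb, while the E47 wild type stays between -0.08 and 0.07. The E12 knockout climbs less, from -0.07 to 0.16.

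The labelled cell type was checked first. Acta2, smooth muscle alpha actin (chromosome 19, 34241090 to 34255590, GRCm38), was abundant in both cultures, at 1929 and 1978 CPM for E12 against 3693 and 3439 CPM for E47. Its log2 change was -0.87 (SE 0.0648, adjusted p = 2.4e-08), and per kb of exon it stood at 889 and 1624 CPM. Myh11, the smooth muscle myosin heavy chain (chromosome 16, 14194535 to 14291372), was at 6.06 and 8.82 CPM against 97 and 99.5 CPM (log2 change -3.74, SE 0.126, adjusted p = 1.9e-12). Both cultures thus held the actin at a high level, while the myosin was low per kb, at 0.979 CPM in the E12 and 12.9 CPM in the E47 wild type.

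Genes of the contractile apparatus were lower in the E12 than in the E47 wild type. Of 38 tested, 18 were lower by over 2-fold and none was higher by that much, and the list's median log2 change was -0.93. By the test alone 31 were lower, 2 higher and 5 passed in neither direction. The gap differed widely between members. Mylk, the kinase that phosphorylates the myosin light chain, was at 2.11 and 1.79 CPM against 166 and 173 CPM (log2 change -6.43, SE 0.114, adjusted p = 2.3e-15). Cnn1, calponin, was at 7.72 and 6.95 CPM against 106 and 101 CPM (log2 change -3.81, SE 0.0977, adjusted p = 1e-13). Myl9, the regulatory light chain itself, was at 21.1 and 23.1 CPM against 218 and 212 CPM (log2 change -3.28, SE 0.0812, adjusted p = 8e-14). In each of these genes the 2 cultures were far apart and the extractions close together. Lmod1, which nucleates actin filaments, and Itga8, an integrin chain of smooth muscle, also stood lower, with log2 changes of -2.55 and -4.88. Kcnmb1, the regulatory subunit of the large-conductance potassium channel, had a single count in the E12 wild type (0.0638 and 0 CPM) and 5.52 and 6.9 CPM in the E47 wild type. Tagln, transgelin, had a log2 change of -3.36, but 67.9% of its exons overlap another gene and strand was not kept, so its value is uncertain. Flna, an actin crosslinker, had a log2 change of -0.52, and Tpm1, a tropomyosin, was higher in the E12 wild type by a log2 change of 0.41 (SE 0.0649, adjusted p = 7e-05). Vcl, vinculin, at 616 and 729 CPM against 647 and 681 CPM, did not pass the test (adjusted p = 0.87).

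Regulators of the contractile genes did not follow one direction. Myocd, the coactivator of serum response factor, was higher in the E12 wild type, at 10.3 and 12.3 CPM against 4.73 and 5.07 CPM (log2 change 1.18, SE 0.169, adjusted p = 2.8e-05). Klf4, known for its part in loss of contractile genes, was higher as well, at 302 and 304 CPM against 109 and 116 CPM (log2 change 1.43, SE 0.0659, adjusted p = 8e-11). Klf5 was higher by a log2 change of 2.20. Klf2, a flow-responsive factor, was lower, at 5.55 and 6.35 CPM against 53.7 and 48.1 CPM (log2 change -3.09, SE 0.116, adjusted p = 6e-12). Of 26 regulators tested, 3 were higher and 5 lower by over 2-fold, with a median of -0.30. Over all genes these shares were 8.43% and 9.41%. By the test alone 6 regulators were higher, 13 lower and 7 passed in neither direction.

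Serum response factor binds the CArG box, 2 C, 6 A or T and 2 G. The 250 bases upstream of the RefSeq start were searched for it, since the contractile members were lower together by different amounts and this box is the element they are best known for. The GENCODE annotation used here for gene positions begins some transcripts farther upstream, so a window can hold part of an exon. For 3 of the genes with the widest gaps, the part of the window before any annotated exon in it is shown. The letters are from RefSeq (GRCm38.p6) and in the gene's direction. The window of Mylk belongs to a RefSeq start inside the annotated gene, which spans 34745210 to 35002420 on chromosome 16. CArG boxes are in capitals, allowing 1 C or G in the 6 inner bases.
Mylk, chr16:34784700-34784920, plus strand: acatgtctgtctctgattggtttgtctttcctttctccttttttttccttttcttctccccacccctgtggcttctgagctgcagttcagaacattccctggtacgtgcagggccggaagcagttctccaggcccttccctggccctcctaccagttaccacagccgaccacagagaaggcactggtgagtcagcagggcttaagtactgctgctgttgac
Cnn1, chr9:22099003-22099215, plus strand: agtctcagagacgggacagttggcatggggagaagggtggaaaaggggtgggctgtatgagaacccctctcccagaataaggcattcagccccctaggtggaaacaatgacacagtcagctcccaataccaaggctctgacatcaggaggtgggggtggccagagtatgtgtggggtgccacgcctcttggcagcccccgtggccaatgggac
Myl9, chr2:156775214-156775419, plus strand: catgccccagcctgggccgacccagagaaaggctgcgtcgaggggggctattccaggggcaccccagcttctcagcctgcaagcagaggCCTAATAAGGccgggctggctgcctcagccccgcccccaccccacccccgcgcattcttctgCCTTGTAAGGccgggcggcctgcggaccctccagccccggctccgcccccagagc
The window of Myl9 holds 2 such boxes, 1 of them with no C or G inside, and those of Mylk and Cnn1 hold none. That of Acta2 also holds 2, both inside an annotated exon that takes up 217 of its 250 bases, so it is not shown. Counted per gene, with any of its promoters, 12 of the 34 contractile genes matched (35.3%) had a box, against 9.78% of all 27025 genes of the table. With no C or G allowed inside, the counts were 7 of 34 (20.6%) against 1.62%. Of the endothelial markers matched, 4 of 20 had a box, and of the mesothelial markers 0 of 11. Since the contractile genes are best known for this box, a higher share among them was likely in advance and says nothing of how the cultures differ. A match is a run of letters and says nothing of binding. Acta2 and Myl9, with boxes in their windows, had log2 changes of -0.87 and -3.28. Mylk and Cnn1, with none in theirs, had log2 changes of -6.43 and -3.81. Sequence outside the windows was not searched for these genes, and whether the boxes relate to the changes was not tested.

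Endothelial markers were lower in the E12 wild type. Of 33 tested, 27 were lower in the E12 wild type by over 2-fold and 2 were higher, against 9.41% and 8.43% over all genes, and the list's median log2 change was -4.32. Pecam1, an adhesion molecule of endothelial junctions (chromosome 11, 106654217 to 106750628), was at 1.85 and 2.24 CPM in the E12 and at 211 and 194 CPM in the E47 wild type (log2 change -6.63, SE 0.114, adjusted p = 2.3e-15). Cdh5, the endothelial cadherin (chromosome 8, 104101625 to 104144511), was at 0.766 and 0.972 CPM against 174 and 167 CPM (log2 change -7.62, SE 0.151, adjusted p = 8.1e-15). The sialomucin Emcn, at 0.766 and 1.2 CPM against 196 and 157 CPM, had a log2 change of -7.50. These markers were near the limit of counting in the E12 culture and well expressed in the other. Vwf, the clotting factor carrier, was lower by a log2 change of -6.19, the receptor kinase Tie1 by -7.44 and the matrix protein Mmrn2 by -8.23. The transcription factors Tal1, Erg and Gata2 were lower too, with log2 changes of -7.93, -6.06 and -5.44. Clec14a had no count for E12 against 3.37 and 2.85 CPM for E47, which makes it at least 29.3-fold lower.

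The endothelial set was not complete in the E47 wild type. Cldn5, the claudin of endothelial tight junctions, Mmrn1 and Gpihbp1 had no count in any of the 4 libraries. Nos3, the endothelial nitric oxide synthase, was at 1.15 and 1.36 CPM, and Tek, the angiopoietin receptor, at 1.07 and 1.68 CPM, in the E47 wild type. Among the receptors for vascular endothelial growth factor, Kdr was at 5.17 and 2.84 CPM in the E12 against 2.15 and 2.65 CPM in the E47 wild type. Flt1 was higher in the E12 wild type by a log2 change of 0.35 (adjusted p = 0.0045) and lost its call without the second E47 library (log2 change 0.22, adjusted p = 0.12). Flt4 was higher by a log2 change of 1.37.

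Summed over the 39 endothelial markers, levels were 147 and 165 CPM in the E12 and 1757 and 1643 CPM in the E47 wild type. The knockouts lay closer to the E12 wild type, at 90.1 and 93 CPM for E12 and 281 and 280 CPM for E47. Pecam1 averaged 0.458 CPM in the E12 and 0.553 CPM in the E47 knockout. In bulk RNA, fewer cells of a type and less RNA per cell cannot be told apart. Most pericyte markers stood on the same side as the endothelial ones. Of 8 tested, 7 were lower in the E12 wild type by over 2-fold (87.5%), against 9.41% over all genes. The other, Cspg4, was higher, at 394 and 488 CPM against 327 and 354 CPM (log2 change 0.37, SE 0.11, adjusted p = 0.01). Its log2 change was 0.21 without the second E12 library. Rgs5, a regulator of G protein signalling typical of pericytes, was at 15.5 and 13.1 CPM against 254 and 283 CPM (log2 change -4.23, SE 0.154, adjusted p = 4.6e-12). Rgs5 averaged 10.5 CPM in the E12 and 218 CPM in the E47 knockout.

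**Figure D2:**
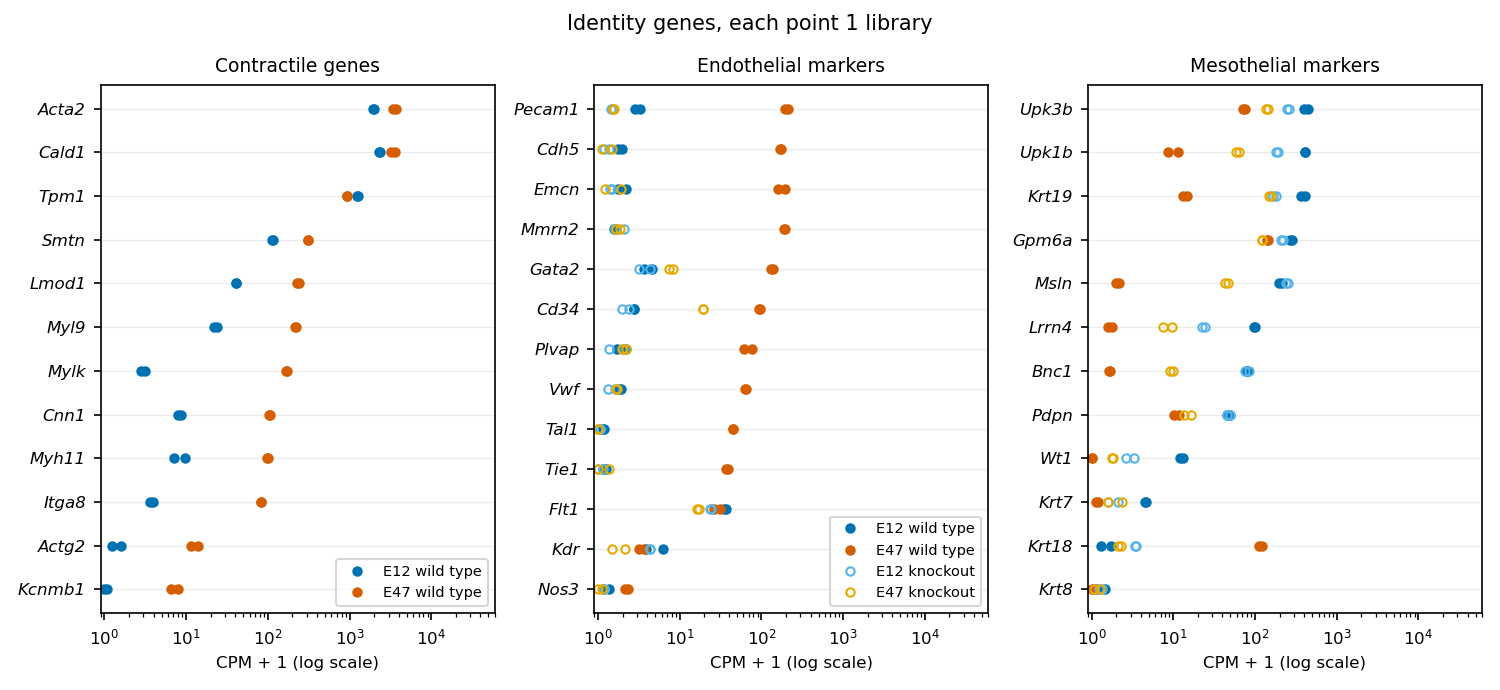
Levels of contractile, endothelial and mesothelial genes in each library (horizontal axis, CPM + 1 on a log scale), with filled points for the wild types and, in the last 2 panels, open points for the knockouts. Endothelial markers other than Flt1 and Kdr stand farthest to the right in the E47 wild type or are near 0 in all groups. In the E47 knockout Cd34 (mean 18.1 CPM) and Gata2 (mean 6.93 CPM) also lie above both E12 groups. Mesothelial markers are higher in the E12 than in the E47 wild type except for Krt18.

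Mesothelial markers were on the opposite side. Of 11 tested, 9 were higher in the E12 wild type by over 2-fold and 1 was lower, with a median log2 change of 4.89. Msln, mesothelin, a surface protein of mesothelium (chromosome 17, 25748613 to 25754378), was at 214 and 196 CPM in the E12 against 1 and 1.17 CPM in the E47 wild type (log2 change 7.52, SE 0.123, adjusted p = 2.1e-15). The uroplakins Upk1b and Upk3b were higher by log2 changes of 5.53 and 2.52, and Upk3b kept 75 and 71.1 CPM in the E47 wild type. Krt19, a keratin, was at 409 and 364 CPM against 12.3 and 13.6 CPM (log2 change 4.89, SE 0.0958, adjusted p = 7.3e-15). Wt1, the Wilms tumour transcription factor of mesothelium and epicardium, was at 11.2 and 12 CPM against no count for E47, at least 153-fold higher. Bnc1 and Lrrn4 were higher by log2 changes of 6.85 and 7.19.

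The exception was Krt18, a keratin, at 0.319 and 0.747 CPM in the E12 and 122 and 111 CPM in the E47 wild type (log2 change -7.79, SE 0.165, adjusted p = 1.5e-14), and -8.48 without the second E12 library. Its usual partner Krt8 was at 0.128 and 0.448 CPM against 0 and 0.039 CPM, so the E47 wild type held Krt18 with almost none of Krt8. Summed over the 16 markers, mesothelial levels were 1994 and 1866 CPM in the E12 and 375 and 355 CPM in the E47 wild type. They were 1201 and 1243 CPM for the E12 and 546 and 554 CPM for the E47 knockout. Cdh1, the epithelial cadherin, was also on the E12 side, at 10.3 and 11.4 CPM against 0.43 and 0.234 CPM (log2 change 5.12, SE 0.273, adjusted p = 4.3e-10), although only 5 of 16 epithelial markers were high enough to test.

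Markers of other cell types were also examined. None of 10 lymphocyte markers was tested, and their summed level lay between 0.0638 and 0.234 CPM in the wild-type libraries. Among 15 macrophage markers, 7 had no count in any wild-type library, Itgam, Tyrobp and Mrc1 among them. Of the 4 macrophage markers tested, Cd14 and Cd68 were higher and Lyz2 was lower in the E12 wild type. Adventitial fibroblast markers were split, with 3 of 15 higher and 4 lower by over 2-fold, and their summed levels were 852 and 839 CPM against 845 and 850 CPM. Pdgfra, a receptor of fibroblasts, was at 2.68 and 2.77 CPM against 15.5 and 13.8 CPM, while Dcn, decorin, was higher in the E12 wild type by a log2 change of 4.91. Mbp, a myelin protein gene that is also transcribed elsewhere, was higher by a log2 change of 5.46. Erbb3, at 4.47 and 5.01 CPM against 0.645 and 0.429 CPM, was higher by a log2 change of 3.20. Both are of the Schwann cell and neural crest list, where 2 of 4 tested were higher by over 2-fold and 0 lower. Cdh19 and Foxd3 of that list had no count.

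E and Id protein genes, the family the series is about, differed by under 2-fold with the exception of Tcf4. Tcf3 was at 109 and 107 CPM against 94.5 and 93.7 CPM (log2 change 0.20, SE 0.0642, adjusted p = 0.015), a call lost when either E47 library (adjusted p = 0.058 and 0.089) or the first E12 library (adjusted p = 0.059) was left out. Tcf12 did not pass the test, at 97.2 and 103 CPM against 102 and 104 CPM. Tcf4, the third E protein, was at 18.6 and 19.5 CPM against 97.4 and 100 CPM (log2 change -2.37, SE 0.0799, adjusted p = 1.9e-12). Of the Id genes, which encode partners that hold E proteins off DNA, Id1 was higher in the E12 wild type by a log2 change of 0.69 and Id2, Id3 and Id4 were lower, by log2 changes of -0.74, -0.34 and -0.88. The call for Id3 was lost without the first E47 library (adjusted p = 0.052).

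Genes of the sex chromosomes served as a check on the source of the cells. The Y-linked Kdm5d and Eif2s3y did not pass the test between the wild types. Uty had a log2 change of -0.27 (adjusted p = 0.053) and passed as lower in 6 of the alternative fits, among them that of the 4 wild-type libraries alone (adjusted p = 0.036). Ddx3y was at 106 and 107 CPM against 137 and 154 CPM (log2 change -0.45, SE 0.0799, adjusted p = 0.00022). Xist, the RNA that coats the inactive X chromosome, was at 0 and 0.0747 CPM in the E12 and 7.31 and 7.72 CPM in the E47 wild type. In the knockouts Xist was at 0.0601 CPM for E12 and 0.0334 CPM for E47. The E47 wild type therefore held Y-linked RNA at a level near that of the other cultures together with Xist. The source of the Xist RNA was not tested.

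Hox genes, which mark position from head to tail, differed by cluster. Of 39, 23 were tested, and 10 were lower and 1 higher in the E12 wild type by over 2-fold, with a median log2 change of -0.59. In the HoxA cluster 6 of 9 tested were lower by over 2-fold. Hoxa5 was at 28.9 and 28.8 CPM against 108 and 98.6 CPM (log2 change -1.84, SE 0.0825, adjusted p = 5.5e-11), and Hoxa9 at 6.32 and 8.45 CPM against 40.9 and 38.4 CPM (log2 change -2.43, SE 0.137, adjusted p = 8.5e-10). Hoxa3, Hoxa4, Hoxa6 and Hoxa10 were lower by over 2-fold too. Hoxa2 did not pass the test (adjusted p = 0.058), but did without either library of the E47 knockout (adjusted p = 0.018). Hoxa7 passed by a small margin (log2 change -0.21, adjusted p = 0.044), and the call was lost in 10 of the 14 other settings tried.

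The HoxD cluster was close to silent in the E12 wild type. Hoxd8 was at 0.191 and 0.0747 CPM against 16.7 and 17.9 CPM (log2 change -6.90, SE 0.305, adjusted p = 4.8e-10, and -7.73 without the first E12 library), and Hoxd9 at 0 and 0.149 CPM against 9.17 and 10.9 CPM. Summed over its 9 genes, HoxD reached 0.51 and 0.374 CPM in the E12 and 27.8 and 30.7 CPM in the E47 wild type. Both knockouts were at the E12 wild type's level or below, at 0.0965 and 0.0601 CPM for E12 and 0.052 and 0.134 CPM for E47. In the HoxB cluster none of 8 tested genes differed by over 2-fold, the largest log2 change being that of Hoxb5, at -0.77, and the sums were 152 and 150 CPM against 191 and 182 CPM. By the test alone 4 of the 8 were lower in the E12 wild type, Hoxb5 (adjusted p = 0.00015), Hoxb6 (log2 change -0.59, adjusted p = 0.00019), Hoxb9 and Hoxb3. Hoxb9, a posterior gene of that cluster, was at 24.2 and 25 CPM against 31.3 and 29.3 CPM (log2 change -0.30, adjusted p = 0.0083) and lost its call without the first library of either wild type (adjusted p = 0.059 and 0.06). Hoxb3 (log2 change -0.35, adjusted p = 0.02) lost its call without the second library of either (adjusted p = 0.15 each), and 52.9% of its exons overlap another gene. In HoxC, Hoxc4 was higher in the E12 wild type, at 3.13 and 4.78 CPM against 1.15 and 1.05 CPM (log2 change 1.84, SE 0.291, adjusted p = 7.5e-05), and Hoxc13 was lower, at 0.128 and 0.224 CPM against 2.01 and 1.6 CPM.

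**Figure D3:**
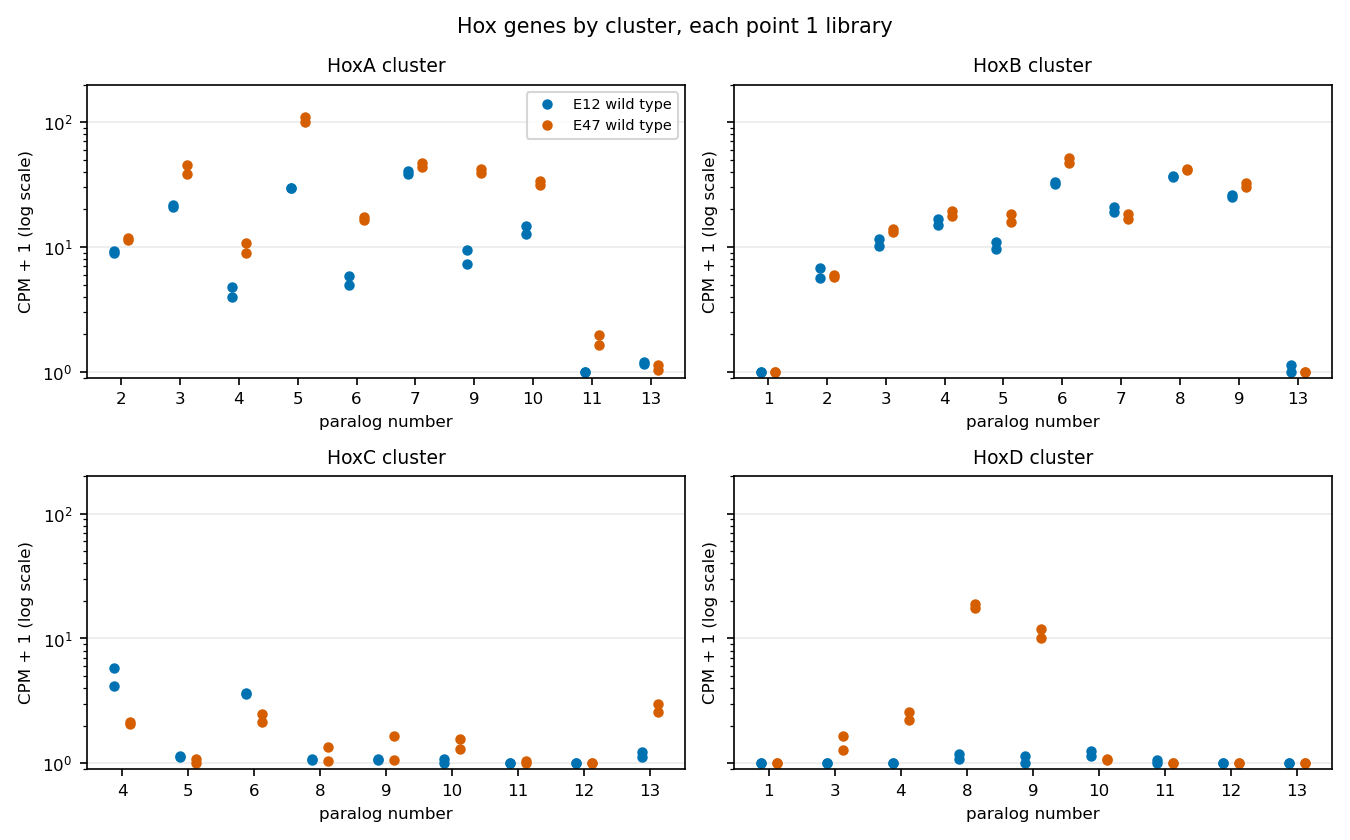
Levels of Hox genes, most members of each cluster shown, in the 2 libraries of each wild type (vertical axis, CPM + 1 on a log scale), ordered by paralog number (horizontal axis) within the HoxA, HoxB, HoxC and HoxD clusters. Points of the cultures lie close in HoxB and apart in much of HoxA, and in HoxD paralogs 8 and 9 stand above the rest in the E47 wild type.

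Of 74 regional transcription factors tested out of 122, 30 were lower and 13 higher in the E12 wild type by over 2-fold. Several were on in one culture and at or near 0 in the other. Irx2, a homeobox factor, had no count for E12 against 8.81 and 7.92 CPM for E47, at least 79.6-fold lower. Isl1, a factor of cardiac and outflow tract progenitors, had no count against 7.16 and 6.67 CPM, at least 66.2-fold lower, and Six2 none against 3.22 and 2.14 CPM, at least 24.4-fold lower. Gata2 and Gata3 were lower, Gata3 at 3.96 and 3.51 CPM against 43.8 and 41.7 CPM (log2 change -3.51, SE 0.117, adjusted p = 1.6e-12). Mkx, a tendon factor, was lower by a log2 change of -5.61 and Snai2, a repressor of epithelial genes, by -2.84. Foxc1 and Twist1, both expressed in mesenchyme, were lower by log2 changes of -1.52 and -1.26.

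The factors higher in the E12 wild type included Nkx2-1, known from lung, thyroid and forebrain, at 10.6 and 8.22 CPM against 0.645 and 0.039 CPM (log2 change 5.17, SE 0.418, adjusted p = 5.9e-08). Nkx2-3, of gut and spleen mesenchyme, was at 15.4 and 17.6 CPM against 1.22 and 0.78 CPM (log2 change 4.13, SE 0.21, adjusted p = 2.5e-10). Gata4, a factor of heart and mesothelium, was at 7.02 and 5.08 CPM against 0.358 and 0.078 CPM (log2 change 5.04, SE 0.469, adjusted p = 5.4e-07). Each of these was low in level, with no overlap between the cultures. Leaving out an E47 library moved the log2 change of Nkx2-1 to 7.69 (the first) or 3.86 (the second) and that of Gata4 to 6.17 or 4.06. Emx2 and Osr1, known from kidney and intermediate mesoderm development, were higher by log2 changes of 2.64 and 1.43. Zic2 and Zic5, neighbours of each other in the genome, were higher by log2 changes of 5.28 and 5.58. Gata6, the GATA factor of smooth muscle, was high in both, at 417 and 433 CPM against 255 and 254 CPM (log2 change 0.74, SE 0.0623, adjusted p = 9.6e-08). Tbx5, Meox2 and Gata5 were among the 26 regional factors with no count in any of the 4 libraries. Scx, Prrx1, Meis1 and Pbx2 did not pass the test.

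Surface genes separated the cultures sharply. Thy1, a glycolipid-anchored antigen of fibroblasts and pericytes (chromosome 9, 44043384 to 44048579), was at 0.574 and 0.448 CPM in the E12 and 303 and 288 CPM in the E47 wild type (log2 change -9.14, SE 0.14, adjusted p = 1.6e-15). Vcam1, the adhesion molecule that binds leukocyte integrins (chromosome 3, 116109949 to 116129688), ran the other way, at 2219 and 2071 CPM against 147 and 138 CPM (log2 change 3.91, SE 0.0792, adjusted p = 9.3e-15). Icam1, which serves the same function, was at 7.47 and 8.22 CPM against 97.2 and 84.9 CPM (log2 change -3.54, SE 0.112, adjusted p = 9.3e-13). The antigens Cd34, Cd200 and Nt5e (CD73) were lower in the E12 wild type by log2 changes of -5.70, -5.88 and -3.21. Tspan8, a tetraspanin, Cd55, a complement inhibitor, and the junction proteins F11r and Cxadr were higher by log2 changes of 7.27, 3.62, 2.40 and 3.19. Among other tetraspanins Cd82 was higher too, at 87.5 and 82.4 CPM against 17.7 and 16.4 CPM (log2 change 2.32, SE 0.0841, adjusted p = 4.2e-12). Cd81 had a log2 change of 0.23, not called without the second E47 library (adjusted p = 0.057), and Cd63 did not pass the test (adjusted p = 0.92). Among 42 stromal antigens tested, 8 were higher and 11 lower by over 2-fold.

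Integrins and cadherins, the receptors for matrix and for neighbouring cells, changed in both directions. Of 21 integrin chains tested, 5 were higher and 7 lower in the E12 wild type by over 2-fold. Itga1 and Itga11, collagen-binding chains, were lower by log2 changes of -2.16 and -1.94, and Itga9 was lower by a log2 change of -4.90. The laminin-binding chain Itga3 was at 737 and 793 CPM against 321 and 335 CPM (log2 change 1.22, SE 0.0694, adjusted p = 9.3e-10), and Itgb6, a chain of epithelia, was higher by a log2 change of 4.08. Itgb1, the most common partner, was lower by a log2 change of -0.47, and Itgav passed the test only without the first E12 library (log2 change 0.22, adjusted p = 0.044). Of 23 cadherins tested, 5 were higher and 8 lower. Cdh11, the cadherin of mesenchyme, was at 184 and 185 CPM against 51.1 and 50.4 CPM (log2 change 1.86, SE 0.0873, adjusted p = 9.1e-11), and Cdh2, N-cadherin, had a log2 change of -0.32. Fat1, a giant cadherin, was at 1182 and 2649 CPM against 3269 and 3156 CPM, and its log2 change of -0.75 (adjusted p = 0.018) became -0.28 without the first E12 library (adjusted p = 0.087) and -1.44 without the second. DESeq2 did not call it (adjusted p = 0.15), and neither did the fit without the first E47 library (adjusted p = 0.051).

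Receptors for soluble signals divided as well. Among 48 receptor tyrosine kinases and ephrins tested, 11 were higher and 12 lower in the E12 wild type by over 2-fold. Pdgfrb, the receptor that drives smooth muscle and pericyte growth, was at 214 and 249 CPM against 615 and 659 CPM (log2 change -1.46, SE 0.0882, adjusted p = 1.9e-09). Mst1r, the receptor of macrophage-stimulating protein, was at 16.7 and 17.1 CPM against 0.215 and 0.078 CPM (log2 change 6.98, SE 0.306, adjusted p = 4.2e-11). Without the first or the second E47 library the log2 change of Mst1r was 7.64 or 6.25. Ddr1, a collagen receptor, was level, at 771 and 799 CPM against 770 and 776 CPM, and did not pass the test. The growth hormone receptor Ghr was at 148 and 148 CPM against 1290 and 1340 CPM (log2 change -3.15, SE 0.0706, adjusted p = 2.7e-14). The Wnt receptor Fzd4 and the Hedgehog receptor Ptch1 were lower too, by log2 changes of -3.13 and -2.85, and Jag2 and Dlk1, ligands of the Notch family, were higher by log2 changes of 3.12 and 6.30. For 39 cytokine, TGF-beta and BMP receptors the split was 2 higher and 8 lower, the share nearest to the background of the surface lists. The call for Bmpr2 (log2 change -0.37, adjusted p = 0.042) was lost without the first E12 library (log2 change -0.07, adjusted p = 0.56) and in 7 of the 13 other settings tried.

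Of 40 vascular G protein-coupled receptors tested, 19 were lower and 7 higher by over 2-fold, with a median log2 change of -0.96. Some receptors of the same ligand stood on opposite sides, in pairs completed after the values were seen. For sphingosine-1-phosphate, S1pr5 was at 96.6 and 95.2 CPM against 0.501 and 0.351 CPM (log2 change 7.86, SE 0.166, adjusted p = 1.4e-14), S1pr1 at 0.829 and 0.598 CPM against 19.8 and 19.8 CPM (log2 change -4.76, SE 0.222, adjusted p = 8.6e-11), and S1pr2 was higher by a log2 change of 0.52. For lysophosphatidic acid, Lpar2 was higher by log2 changes of 3.63 and Lpar1 lower by a log2 change of -3.56. Calcrl, the receptor for calcitonin gene-related peptide and adrenomedullin, was at 1.53 and 1.72 CPM against 51.1 and 53.8 CPM. Of the partners that set its ligand, Ramp1 was higher by log2 changes of 3.59 and Ramp2 lower by a log2 change of -3.19, which was -4.35 without the first E12 library. Npy1r, for neuropeptide Y, was higher by a log2 change of 5.24. Ednra, the endothelin receptor best known from smooth muscle, had no count in any of the 4 libraries, and the angiotensin receptor Agtr1a had 1 count in all.

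Guidance molecules, first known from growing axons, changed in both directions. Of 43 tested, 15 were lower and 8 higher in the E12 wild type by over 2-fold, against 9.41% and 8.43% over all genes. By the test alone 19 were lower and 16 higher, with a median log2 change of -0.22. Sema3e, a secreted semaphorin, was at 23 and 25.5 CPM against 424 and 434 CPM (log2 change -4.15, SE 0.0805, adjusted p = 6.9e-15). Slit2, a repellent, was at 58.8 and 78.9 CPM against 669 and 720 CPM (log2 change -3.34, SE 0.11, adjusted p = 1.5e-12), and its receptor Robo1 was lower by a log2 change of -2.24. Sema4f and Flrt1 were higher by log2 changes of 4.64 and 4.35. Slit2 and Robo1 thus stood on the same side, and other Slit and Robo genes are not reported here.

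**Figure D4:**
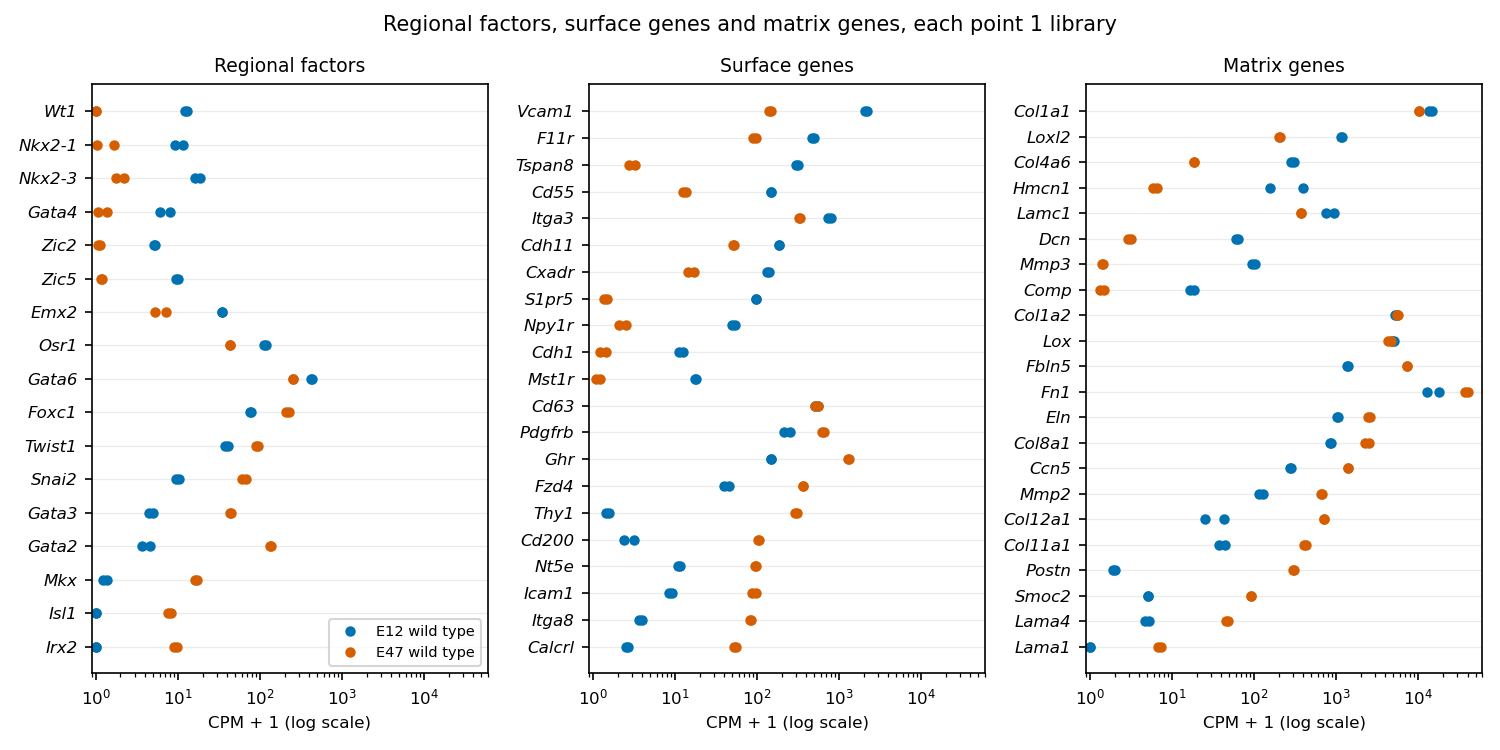
Levels of regional transcription factors, surface genes and matrix genes in the 2 libraries of each wild type (horizontal axis, CPM + 1 on a log scale). In each panel the upper genes are higher in the E12 and the lower genes in the E47 wild type, with Cd63, Col1a2 and Lox level between them.

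The chains of type I collagen differed little between the cultures, while several chains that lie on or within other fibrils differed by over 2-fold. Per kb of exon, Col1a1, the main chain of type I collagen, was at 2174 CPM in the E12 and 1572 CPM in the E47 wild type, a log2 change of 0.47 (SE 0.0857, adjusted p = 0.00029). Its partner Col1a2 did not pass the test, at 5280 and 5464 CPM against 5545 and 5737 CPM. Of 33 collagen chains tested, 12 were lower and 5 higher in the E12 wild type by over 2-fold, with a median of -0.41. Col12a1, a chain on the surface of fibrils, was at 24.2 and 41.7 CPM against 708 and 717 CPM (log2 change -4.45, SE 0.19, adjusted p = 3.1e-11). Col11a1 and Col2a1, chains of cartilage fibrils, were lower by log2 changes of -3.39 and -1.48, and Col8a1, of vessel walls, by -1.47. Sox9, the regulator of cartilage collagens, was lower as well, at 59 and 60.9 CPM against 168 and 168 CPM (log2 change -1.48, SE 0.0686, adjusted p = 8e-11).

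Type IV collagen, the network of basement membranes, showed a change of chains. Col4a1 and Col4a2, the chains found in all basement membranes, were lower in the E12 wild type by log2 changes of -0.65 and -0.59. Col4a6 was at 282 and 302 CPM against 17.4 and 17.7 CPM (log2 change 4.06, SE 0.0778, adjusted p = 6.4e-15). Its partner Col4a5 was higher by a log2 change of 0.93, and Col4a3 and Col4a4 by log2 changes of 0.98 each. The over-2-fold count of collagens on the E12 side was 3 without the second and 7 without the first E12 library.

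Elastic fibre genes, which give the aorta its recoil, were mixed. Eln, elastin, was at 1031 and 1069 CPM against 2436 and 2560 CPM (log2 change -1.25, SE 0.0645, adjusted p = 2.8e-10). Fbln5, a fibulin needed for elastic fibre assembly, was at 1396 and 1368 CPM against 7413 and 7309 CPM (log2 change -2.41, SE 0.0668, adjusted p = 2.5e-13). Lox, the enzyme that crosslinks elastin and collagen, did not pass the test, at 4773 and 5023 CPM against 4273 and 4618 CPM. Its relatives Loxl2 and Loxl4 were higher in the E12 wild type by log2 changes of 2.50 and 2.19, and Plod2, which hydroxylates collagen lysines for crosslinking, was lower by a log2 change of -2.71. Of 30 genes tested, 6 were higher and 8 lower by over 2-fold, and Mmrn2 counted here is also an endothelial marker.

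Basement membrane genes were the matrix list that leaned to the E12 side, with 7 of 20 higher and 3 lower by over 2-fold and a median log2 change of 0.67. Lamb3, a chain of the laminin of epithelial basement membranes, was higher by a log2 change of 2.18. The laminin alpha chains stood on opposite sides. Lama5 was at 1118 and 1725 CPM against 551 and 518 CPM (log2 change 1.41, SE 0.145, adjusted p = 8.8e-07), and Lama4, of vessel basement membranes, at 3.64 and 4.26 CPM against 47.6 and 45 CPM (log2 change -3.55, SE 0.118, adjusted p = 1.5e-12). Lama1 had no count against 5.8 and 6.39 CPM, at least 59.8-fold lower. Several genes of this list have very long transcripts and were the ones on which the E12 libraries differed. Hmcn1, hemicentin, was at 154 and 392 CPM against 5.59 and 4.95 CPM, and its log2 change of 5.71 was 4.89 without the second and 6.24 without the first E12 library. Hspg2, perlecan, was at 2917 and 6327 CPM against 3502 and 3110 CPM and did not pass the test (log2 change 0.48, adjusted p = 0.096), while without the first E12 library it did (log2 change 0.94, adjusted p = 5.5e-07) and without the second it was at -0.18 (adjusted p = 0.24). The list's count on the E12 side was 6 without the second and 9 without the first E12 library.

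Matrix proteoglycans, which include the small leucine-rich proteins that coat collagen fibrils, were mostly lower in the E12 wild type. Of 19 matrix proteoglycans tested, 12 were lower and 4 higher by over 2-fold, with a median of -1.31. Prelp was at 26.5 and 31.1 CPM against 207 and 207 CPM (log2 change -2.85, SE 0.0858, adjusted p = 5.5e-13), Fmod, fibromodulin, was lower by a log2 change of -3.74, and Ogn, osteoglycin, by -1.83. Dcn was at 63.1 and 58.8 CPM against 2.15 and 1.95 CPM (log2 change 4.91, SE 0.152, adjusted p = 7.1e-13). Bgn, biglycan, was high in both, at 5094 and 5269 CPM against 6536 and 6130 CPM (log2 change -0.29, adjusted p = 0.0018).

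Matricellular proteins, which tune how cells hold to matrix, were split, with 15 of 41 lower and 4 higher in the E12 wild type by over 2-fold. Postn, periostin, was at 0.893 and 1.05 CPM against 302 and 294 CPM (log2 change -8.26, SE 0.128, adjusted p = 1.6e-15). Fn1, fibronectin, was at 12839 and 18010 CPM against 40394 and 37626 CPM (log2 change -1.34, SE 0.136, adjusted p = 7.8e-07). Smoc2 and Ccn5, secreted regulators of matrix assembly and smooth muscle growth, were lower by log2 changes of -4.48 and -2.33. Comp, a matrix protein of cartilage and tendon, was higher, at 15.6 and 17.6 CPM against 0.501 and 0.312 CPM (log2 change 5.42, SE 0.279, adjusted p = 2.8e-10). Ccn2 did not pass the test, and Thbs1 had a log2 change of -0.33.

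Matrix proteases changed in both directions, with 8 of 46 higher and 13 lower by over 2-fold. Mmp3, stromelysin, was at 103 and 94.4 CPM against 0.43 and 0.39 CPM (log2 change 7.91, SE 0.166, adjusted p = 1.4e-14). Mmp2, a gelatinase, was at 113 and 126 CPM against 666 and 648 CPM (log2 change -2.46, SE 0.0737, adjusted p = 5.3e-13), and Reck, a membrane inhibitor of metalloproteinases, was lower by a log2 change of -2.24. The abundant inhibitor Timp2 had a log2 change of 0.27.

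**Figure D5:**
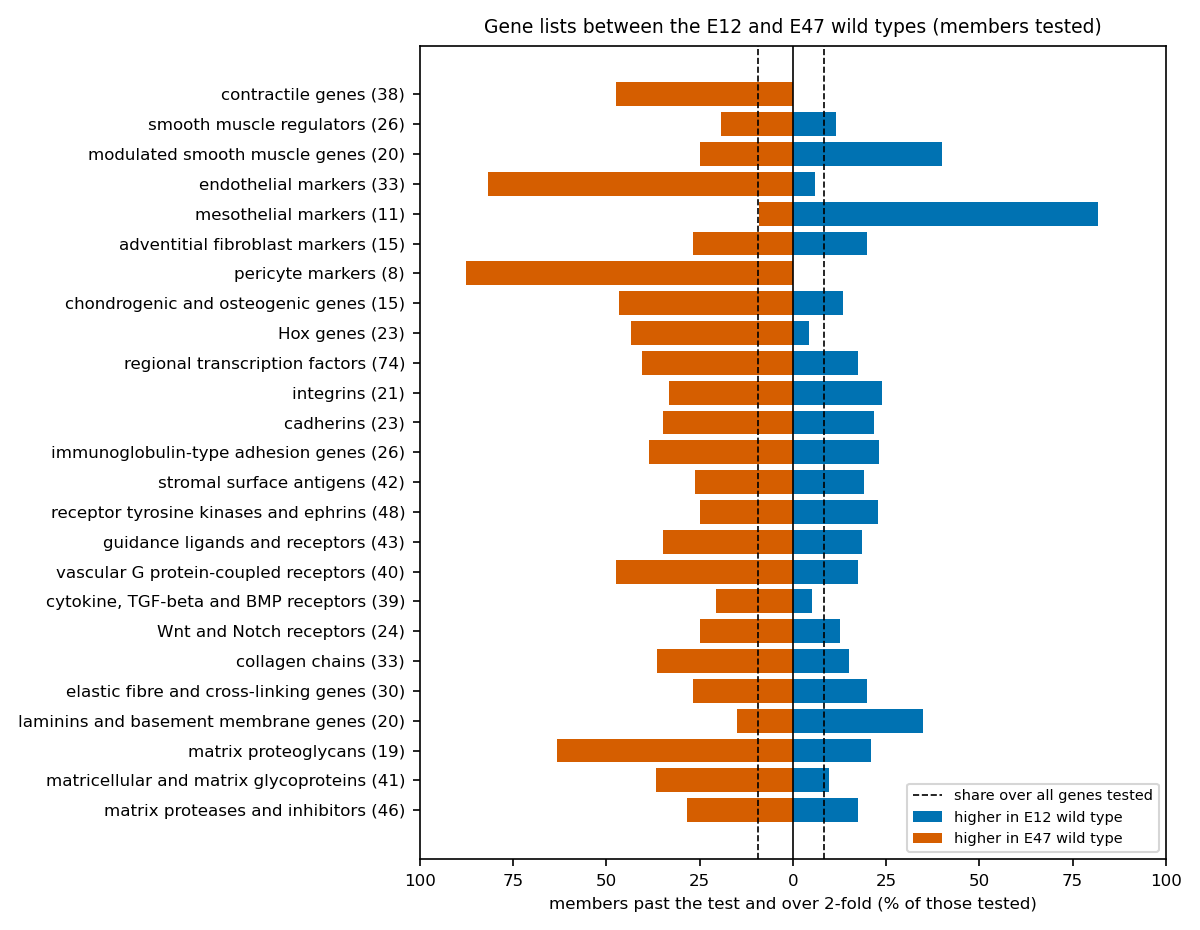
Share of the tested members of each gene list (number in brackets) that passed the test and differed by over 2-fold, to the right where higher in the E12 and to the left where higher in the E47 wild type (horizontal axis, percent). Dashed lines give the shares over all genes tested, 8.43% and 9.41%. Endothelial and pericyte markers reach farthest to the left and mesothelial markers farthest to the right.

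The largest differences outside the lists were named by their size alone. Tnfsf18, a ligand of the tumour necrosis factor family, was at 844 and 833 CPM in the E12 against 3.65 and 2.38 CPM in the E47 wild type (log2 change 8.19, SE 0.138, adjusted p = 2.1e-15). Tmem108, a transmembrane protein, was at 10.3 and 11.8 CPM against none, at least 145-fold higher. On the other side, Srpx2, a secreted protein, was lower by a log2 change of -7.54. Apln, apelin, a peptide of endothelial tips, was at 0.0638 and 0.149 CPM against 24.4 and 23.8 CPM.

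The same comparison between the knockouts, E12 against E47, shares no library with that of the wild types, and 14.6% of genes were called there over 2-fold. Of the 13992 genes tested, 634 were higher and 1407 lower in the E12 knockout, so the directions were not equally common. Of the 1180 genes higher in the E12 wild type, 235 (19.9%) were also higher in the E12 knockout and 223 (18.9%) were lower. Of the 1316 lower in the E12 wild type, 563 (42.8%) were also lower in the E12 knockout and 63 (4.79%) were higher. These were 37.1% and 40% of the genes called in that direction between the knockouts. Contractile genes differed in both comparisons, with 17 of 38 lower in the E12 knockout and 14 of them shared. Fewer endothelial markers did, with 6 of 33 called the same way in both. Between the knockouts, 8 of these 33 were lower and 3 higher in the E12 knockout, against 1407 and 634 of all 13992 genes. Thy1 was lower in the E12 knockout as well, at a mean of 0.578 CPM against 15.8 CPM. So was Postn, at 0.885 CPM against 70.3 CPM. S1pr5, higher in the E12 wild type, was lower in the E12 than in the E47 knockout, at 1.83 CPM against 11.8 CPM.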

How the data were processed

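RNA of aortic smooth muscle cells was sequenced as polyA-enriched, unstranded libraries, per the labels' protocols. The authors deposited whole-number counts per gene for all 8 libraries in one table. FastQC, HISAT, featureCounts and the builds GRCm38 and mm10 are named per the submitters' processing notes, with versions and settings not given in the sources used here. Without strand, reads of overlapping genes cannot be told apart. Gene positions are from GENCODE annotation of GRCm38, matched by symbol for 53435 of 55353 rows. Of the rows, 24 distinct symbols had been turned into dates and held 0.153% to 0.198% of a library's counts.

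Counts were tested with edgeR 4.0.16 (R 4.3.3, limma 3.58.1) by the quasi-likelihood F test, with TMM scaling, filterByExpr and 1 model of 4 genotypes over 8 libraries (4 residual degrees of freedom). P-values were adjusted by Benjamini and Hochberg over 13992 genes, with 0.05 as the threshold. The script was tested on simulated data. CPM values use TMM-scaled library sizes. A gene is given by level alone where a group holds 3 counts or fewer, and folds against 0 counts use a floor of 3 counts over the group, which covers counting error only. DESeq2 1.42.0, other scalings, no filter, the 4 wild-type libraries alone, thinning, a test against 2-fold (glmTreat) and leaving out each library were tried as alternatives.

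The comparison and all gene lists were chosen with earlier results of these data known. Named genes were a fixed set of E protein, smooth muscle, endothelial and sex-linked genes, the 10 largest changes each way, and, per list, up to 6 members over 2-fold with the lowest p and 2 high members that were not. They also included each Hox gene or regional factor of at least 2 CPM. Genes named outside that rule, chosen after their values were seen, were Malat1, Kcnmb1, Tpm1, Vcl, Erg, Clec14a, Nos3, Tek, Kdr, Flt4, Upk3b, Krt8, Hoxc13, S1pr1, S1pr2, Lpar1, Ramp1, Ramp2, Ednra, Agtr1a, Col4a1 to Col4a5, Eln, Lama5, Fn1 and the markers listed at 0 counts. Some genes that the rule named are not reported here.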

Additional observations from a re-analysis of the deposited data

How the results depend on the processing

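The count of genes called between the wild types lay between 6139 and 7862 over the alternatives, against 7747, with 6514 by DESeq2. Testing against a 2-fold change with glmTreat, a stricter test, left 1621 genes over 2-fold (752 higher and 869 lower in the E12 wild type) and 1207 between the knockouts. Leaving out 1 library gave 2349 to 2599 genes over 2-fold, 1107 to 1229 of them higher and 1241 to 1395 lower, and 1936 to 2172 between the knockouts. DESeq2 shared 2268 of the 2496 genes in the same direction (90.9%). With library totals alone the median of all genes was 0.0745, and 51.3% of the genes over 2-fold were higher in the E12 wild type, against 47.3%. Of 4715 values of named genes under alternatives, 4585 stayed on their side of the threshold, 93 lost it (25 genes), 37 gained it (14 genes) and no called gene changed direction. Of 1064 list counts, 14 moved by over 1.5 times. Beside the collagens given above, these were mostly counts that went from 0 to 1 or from 1 to 2, and mitochondrial mRNAs lower in the E12 wild type, 2 in all libraries and 4 without the second E12 library; the cause was not tested. No paired analysis was possible because the labels give the libraries running numbers that no 2 groups share. With 2 libraries a group, small differences are limited by the number of extractions and genes of few counts by depth.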

Other observations

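Genes of cell division were slightly higher in the E12 wild type. Of 27 mitosis genes tested, 22 were called higher and none lower, and 3 were over 2-fold, with a median log2 change of 0.48. The share called higher was 81.5%, against 27.8% over all genes. The share higher by over 2-fold, 11.1%, was near the 8.43% over all genes. Ccnb2, a mitotic cyclin, was at 33.6 and 35.9 CPM for E12 against 15.3 and 13.8 CPM for E47, and Birc5, survivin, at 30.6 and 26.9 CPM against 12.4 and 11.7 CPM, each with a log2 change of 1.26. Mki67, a marker of cycling cells with a long transcript, was at 109 and 172 CPM against 115 and 105 CPM and was not called (adjusted p = 0.071), but was without the first E12 library (log2 change 0.65, adjusted p = 2.5e-05), without either E12 knockout library (adjusted p = 0.037 and 0.036), with library totals alone (adjusted p = 0.014) and with no filter on low counts (adjusted p = 0.00012). Cdkn2b, an inhibitor of the cell cycle, was also higher in the E12 wild type, at 65.5 and 55.3 CPM against 28.3 and 25.7 CPM.

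Of 13 genes of antigen presentation tested, 6 were called higher in the E12 wild type, 1 lower and 6 in neither direction. The share called, 53.8%, was near the 55.4% over all genes. By over 2-fold 5 were higher and 0 lower, or 38.5% against 17.8% over all genes. H2-K1, a class I gene of the major histocompatibility complex, was at 70.6 and 66.5 CPM against 21.1 and 24.1 CPM and H2-D1, another, at 137 and 130 CPM against 59.1 and 54.5 CPM. B2m, their light chain, was at 415 and 385 CPM against 488 and 424 CPM and was not called (adjusted p = 0.087), but was called lower without the second E47 library (log2 change -0.29, adjusted p = 0.034) and with no filter on low counts (adjusted p = 0.041). These genes are alike in sequence and strain alleles differ, so the counting of their reads is uncertain. Immediate early genes were split, with Dusp1 at 353 and 390 CPM against 135 and 156 CPM and Fosb at 7.91 and 8.82 CPM against 23.1 and 31.3 CPM.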
